A study of Mus musculus with 6 samples.

Results

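The transcripts of 10 genes for mRNA decapping, 5′-to-3′ decay and PAN2-PAN3 deadenylation were examined in mouse GV-stage fully-grown oocytes (FGOs), the immature oocytes that have completed growth and rest in prophase of the first meiosis. The genes were Dcp1a, Dcp1b, Dcp2, Dcps, Edc3, Edc4, Xrn1, Xrn2, Pan2 and Pan3, chosen by symbol among the 24255 rows of the FPKM table, and each of the 10 had 1 row. FPKM is the number of sequenced fragments per kilobase of transcript, scaled for the sequencing depth of the library. The 6 libraries came from wild type (WT) females (3 libraries) and from females homozygous for Lsm14b tm1a(KOMP)Mbp (Lsm14b-KO, 3 libraries), a reporter-tagged insertion allele carried in all tissues. Both genotypes were kept on the C57BL/6J background, and every female received 5 IU of PMSG 46 h before 20 oocytes were pooled into a library. LSM14B belongs to the LSM14 proteins, which bind RNA and are found in cytoplasmic mRNA granules of the oocyte. Ages of the females were not given, and neither was whether the libraries of a genotype came from separate animals, so the p-values below measure the spread between these libraries only.

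Decapping removes the 5′ cap from an mRNA and opens it to decay from that end. DCP2 is the catalytic subunit, DCP1A and DCP1B are alternative partners that activate it, and EDC3 and EDC4 are enhancers of decapping that hold the complex together. The decapped RNA is degraded by XRN1 in the cytoplasm, while XRN2 does the same work in the nucleus, and DCPS hydrolyses the cap remnant left by decay from the other end. PAN2 is the deadenylase of a complex whose partner PAN3 binds the poly(A)-binding protein, and the complex trims long poly(A) tails before other deadenylases act. In growing mouse oocytes mRNA is unusually stable, and Dcp1a and Dcp2 are known as dormant maternal mRNAs that are translated once meiosis resumes.

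A stretch of the Dcp1a coding sequence that the study lists as bound by LSM14B in oocytes is shown because it marks where LSM14B was placed on the transcript of a decapping factor. It lies in exon 5 of 10 at chr14:30505555-30505574 (GRCm38, + strand), positions 451 to 470 of transcript ENSMUST00000022535.8.
Dcp1a, LSM14B-bound coding segment: agaggagacacggcgatccc
The segment matched that transcript at a single place. The list of bound segments was available here in shortened form. Only segments of Dcp1a are reported, and whether LSM14B bound transcripts of the other genes is left unstated. Their absence here does not mean that they were missing from the list. Of the 3 Dcp1a segments read from the list, the other 2 (260 and 80 bases) had no match in this transcript and are not shown.

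Several features of the libraries bear on every value below. The FPKM values of a library summed to between 1141320 and 1244180 in WT, and to 1029730, 564671 and 676656 in Lsm14b-KO replicates 1, 2 and 3. From the smallest non-zero values, 1 fragment was worth less in Lsm14b-KO, and the implied totals were 3.62 to 4.10 × 1000000 fragments in WT and 4.80 to 7.79 × 1000000 in Lsm14b-KO. Lsm14b itself was 2.77, 3.98 and 1.72 FPKM in WT and 0, 0 and 0.102 FPKM in Lsm14b-KO, so the groups did not overlap. All 8 oocyte markers (among them Gdf9 and Zp3) were at 1 FPKM or more in every library. Of 9 markers of cumulus and granulosa cells, 4 (Amh, Foxl2, Inhba and Ptx3) were listed at 0 throughout, and the summed level of the 9 ranged from 9.35 to 13.5 FPKM in WT and from 5.59 to 9.58 FPKM in Lsm14b-KO. Most of that sum was Cyp19a1, at 8.26 to 11.5 FPKM in WT and 3.00 to 5.76 FPKM in Lsm14b-KO. Fshr differed the other way, with 0.349 to 1.68 FPKM in WT and 1.82 to 2.07 FPKM in Lsm14b-KO, and neither gene overlapped between the groups. The part of these markers in the results below was not tested. The 5 markers of red blood cells were listed at 0. Scaled to the same FPKM sum, the median log2 fold change of all tested genes moved from -0.08 to 0.40.

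Most of the decapping and decay genes stayed below 1 FPKM. Only Dcp1a and Pan3 reached 1 FPKM in every library, which 14.75% of all genes did. Dcps and Xrn2 each reached it in 1 WT library only, so 4 of 10 passed the minimum for the test (1 FPKM in at least 1 library), against 26.4% of all genes. Dcp2, Edc4, Xrn1 and Pan2 stayed below 1 FPKM in all libraries. Dcp1b and Edc3 were listed at 0 in all 6, as were 40.9% of all genes.

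By mean over the 6 libraries the order was Pan3, Dcp1a, Dcps, Xrn2, Edc4, Pan2, Dcp2 and Xrn1, followed by Dcp1b and Edc3 at 0. Pan3 stood apart, since its lowest library (9.67 FPKM) lay above the highest of Dcp1a (3.47 FPKM). It was higher than 94.6% of all genes in the table by mean FPKM, and Dcp1a was higher than 85.4%. The lower members above 0 were higher than 78.8% (Dcps) down to 59.1% (Xrn1) of all genes, of which 40.9% were at 0 throughout. Among the tested genes alone, Pan3 was higher than 79.7%, Dcp1a than 44.8%, Dcps than 19.5% and Xrn2 than 11.6%. From Dcp1a down to Dcp2 each neighbour in the order overlapped the next. The lowest Dcp2 value (0.222 FPKM) was barely above the highest Xrn1 value (0.221 FPKM).

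**Figure D1:**
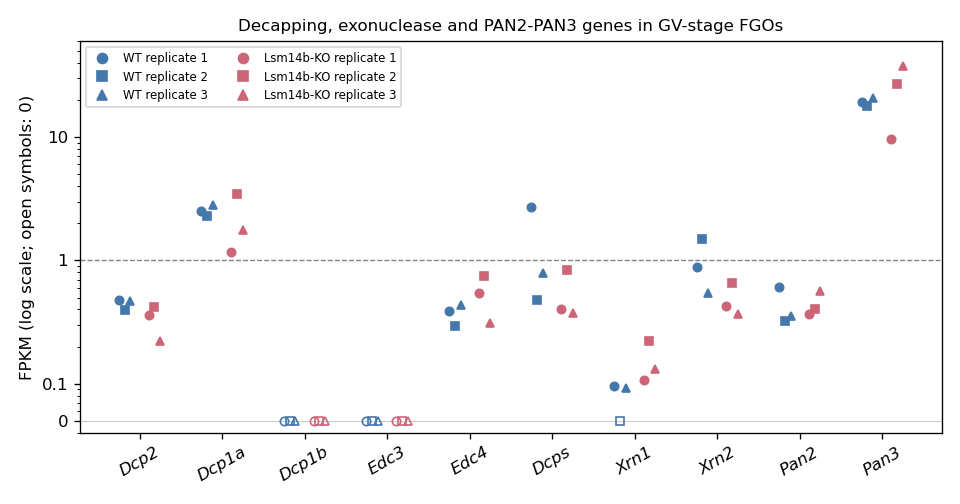
FPKM (log axis) of the 10 genes in each of the 6 libraries. Blue symbols are WT, red symbols are Lsm14b-KO, the shape gives the replicate, open symbols on the lower line are values of 0 and the dashed line is 1 FPKM. Pan3 lay between 9.67 and 37.8 FPKM, above all other members, and Dcp1b and Edc3 were at 0 in every library.

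None of the 4 members tested passed the threshold between the genotypes (limma on log2(FPKM + 1), adjusted p from 0.243 to 0.809), and 0 of 4 had an unadjusted p under 0.05, the lowest being 0.138. Among all 6398 genes tested, 1383 passed an adjusted p of 0.05 (21.6%), with 408 higher (6.38%) and 975 lower (15.2%) in Lsm14b-KO. That split depended on the scaling, and with the same FPKM sum in each library 833 were higher and 486 lower. The median log2 fold change of the 4 members was -0.32, beside -0.08 for all tested genes. Dcps and Xrn2 passed the minimum only through 1 WT library each (2.73 FPKM in WT replicate 1 and 1.48 FPKM in WT replicate 2). Such a selection favours lower values in Lsm14b-KO, so no conclusion is drawn from this median. In oocyte pools, fewer copies per cell and fewer contributing cells of a type cannot be told apart. The labels name Smart-seq2, which usually primes on poly(A) tails, but also random primers, so whether a level here is that of tailed transcripts cannot be told.

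Dcp2, the decapping enzyme, had 0.480, 0.395 and 0.467 FPKM in WT and 0.362, 0.416 and 0.222 FPKM in Lsm14b-KO. Its mean was 0.448 ± 0.0456 FPKM in WT and 0.333 ± 0.1003 FPKM in Lsm14b-KO (SD, n = 3). The groups overlapped, because Lsm14b-KO replicate 2 was above WT replicate 2. About 16, 15 and 16 fragments lay behind the WT values and about 16, 27 and 16 behind those of Lsm14b-KO. An exact permutation test of the log2 values gave p = 0.20, where 3 against 3 libraries cannot go below 0.10. With no minimum on the level, the difference was -0.12 on the log2(FPKM + 1) scale with a limma adjusted p of 0.568. With the same FPKM sum in each library it was 0.09, so its direction was not fixed by these data.

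Dcp1a, the activating partner of DCP2, had 2.54, 2.31 and 2.83 FPKM in WT. In Lsm14b-KO it had 1.17, 3.47 and 1.76 FPKM. The WT libraries were close together, with an SD of 0.11 on the log2 scale, and Lsm14b-KO spread on both sides of them with an SD of 0.53, while the median tested gene had SDs of 0.21 and 0.37. The log2 fold change was -0.25 ± 0.28 (SE, limma adjusted p = 0.519). It was 0.27 with the same FPKM sum in each library and -0.49 after a correction for transcript length and GC content, and neither passed the threshold. It was -0.54 without Lsm14b-KO replicate 2 and -0.017 without Lsm14b-KO replicate 1, also without passing. Its gene overlaps Cacna1d on the other strand, which was measured at 0 to 0.204 FPKM.

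Dcp1b, the second DCP1 gene, was listed at 0 in all 6 libraries. At the estimated depth, 3 fragments of its transcript would have given between 0.116 and 0.24998 FPKM. All 3 genes deposited at its locus were at 0, among them Cacna1c, which overlaps it on the other strand, and a 0 in this table can also be an estimate that failed. Dcp1a was therefore the only one of the pair with a measured level, at 1.17 FPKM or more.

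Edc3 was also listed at 0 in every library, where 3 fragments would have given between 0.0675 and 0.145 FPKM. Its last exon shares sequence with Clk3, a kinase gene on the other strand that was measured at 0.169 to 1.04 FPKM, and the strand of the reads was not stated. Edc4, the scaffold of the decapping complex, was low but present, with 0.392, 0.295 and 0.436 FPKM in WT and 0.549, 0.748 and 0.310 FPKM in Lsm14b-KO. Lsm14b-KO replicates 1 and 2 were above all WT libraries and replicate 3 was among them. Its values rested on about 6 to 8 fragments in WT and 12 to 26 in Lsm14b-KO. The difference of 0.15 on the log2(FPKM + 1) scale had an exact permutation p of 0.30 and, with no minimum, a limma adjusted p of 0.571.

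Dcps, the scavenger enzyme, had the widest spread of the 10 genes within WT, with an SD of 0.71 on the log2 scale. It had 2.73, 0.474 and 0.786 FPKM there and 0.406, 0.839 and 0.372 FPKM in Lsm14b-KO. WT replicate 1 stood above the other 5 libraries, which lay between 0.372 and 0.839 FPKM. The transcript is short, and these levels came from about 10, 2 and 3 fragments in WT and about 2, 6 and 3 in Lsm14b-KO. The log2 fold change was -0.49 ± 0.35 (SE, limma adjusted p = 0.318), and it was -0.09 without WT replicate 1 and -0.76 without WT replicate 2. Genes on the other strand overlap Dcps and also Xrn1, and without strand their reads could not be told apart.

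Xrn1, the cytoplasmic exonuclease that degrades decapped mRNA, was the lowest member above 0. It had 0.0954, 0 and 0.0928 FPKM in WT and 0.108, 0.221 and 0.132 FPKM in Lsm14b-KO. Every Lsm14b-KO library was above every WT library, and Xrn1 was the only one of the 10 genes whose groups did not overlap. Among the tested genes the groups did not overlap in 45%, so such separation was common there. Xrn1 was not a tested gene, and the share among genes of its level was not computed. The counts behind the Xrn1 values were small, about 2, 0 and 2 fragments in WT and about 3, 9 and 6 in Lsm14b-KO, and the implied depth was higher in Lsm14b-KO. These counts assume a length of 5795 nt. At the annotated 10256 nt they would be 3.55, 0 and 3.55 in WT and 5.31, 15.9 and 10.6 in Lsm14b-KO. The exact permutation p was 0.10, the smallest the design allows, and with no minimum the limma adjusted p was 0.318 for a difference of 0.12 on the log2(FPKM + 1) scale.

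Xrn2, the nuclear exonuclease, had 0.886, 1.48 and 0.548 FPKM in WT and 0.424, 0.662 and 0.371 FPKM in Lsm14b-KO. The WT mean was 0.972 ± 0.474 FPKM and the Lsm14b-KO mean was 0.486 ± 0.155 FPKM (SD, n = 3). Lsm14b-KO replicate 2 was above WT replicate 3, so the groups overlapped. The log2 fold change was -0.39 ± 0.23 (SE, limma adjusted p = 0.243), the lowest adjusted p among the members. It was -0.21 without WT replicate 2 and -0.55 without WT replicate 3. With the same FPKM sum in each library it was -0.09. The values rested on about 7 to 21 fragments per library.

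**Figure D2:**
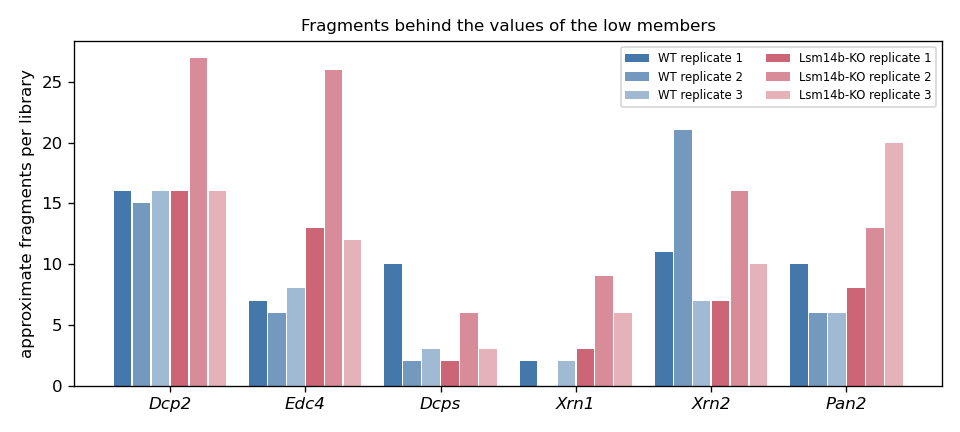
Approximate number of sequenced fragments (vertical axis) behind the FPKM of the 6 low members in each library. Blue bars are WT and red bars are Lsm14b-KO, lighter with replicate number. Most bars stood below 20 fragments, and Xrn1 and Dcps had 10 or fewer in every library. At the annotated transcript lengths the highest numbers would be 15.9 for Xrn1 and 12.6 for Dcps.

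Pan3, the adaptor of the PAN2-PAN3 deadenylase, was the highest of the 10 genes and the one that varied most among the Lsm14b-KO libraries. WT had 19.3, 17.8 and 20.8 FPKM. Lsm14b-KO had 9.67, 26.8 and 37.8 FPKM. Replicate 1 was below all WT libraries and replicates 2 and 3 were above all of them, so the genotype had no single direction. Counting error is small here, since about 234 to 1488 fragments lay behind each value. The SD of the log2 values was 0.11 in WT and 0.97 in Lsm14b-KO.

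The log2 fold change of Pan3 was 0.16 ± 0.46 (SE, limma adjusted p = 0.809). It rested on single libraries. Without Lsm14b-KO replicate 1 it was 0.70 ± 0.22 (limma adjusted p = 0.0372), which was the only setting in which any member passed the threshold. In that setting 2898 of the 6398 tested genes passed (45.3%), so 1 of 4 members was below the share of all genes. Without Lsm14b-KO replicate 3 it was -0.23. Scaled to a total of 1000000 per library (TPM), the WT values were 15.5, 15.2 and 18.2 and the Lsm14b-KO values 9.39, 47.5 and 55.9, a log2 fold change of 0.83 with a limma adjusted p of 0.301, where the median of all tested genes was 0.40. After the correction for length and GC content it was -0.06. Lsm14b-KO replicate 1 was also the library of its genotype with the FPKM sum nearest to WT and the lowest implied depth, and the part of these features in the Pan3 values was not tested.

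Pan2, the catalytic subunit, was far lower, with 0.610, 0.321 and 0.356 FPKM in WT and 0.368, 0.402 and 0.563 FPKM in Lsm14b-KO. The groups overlapped over most of their range, and the means were 0.429 ± 0.158 and 0.444 ± 0.104 FPKM (SD, n = 3). Its difference was 0.02 on the log2(FPKM + 1) scale (exact permutation p = 0.70). About 6 to 20 fragments lay behind each value.

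**Figure D3:**
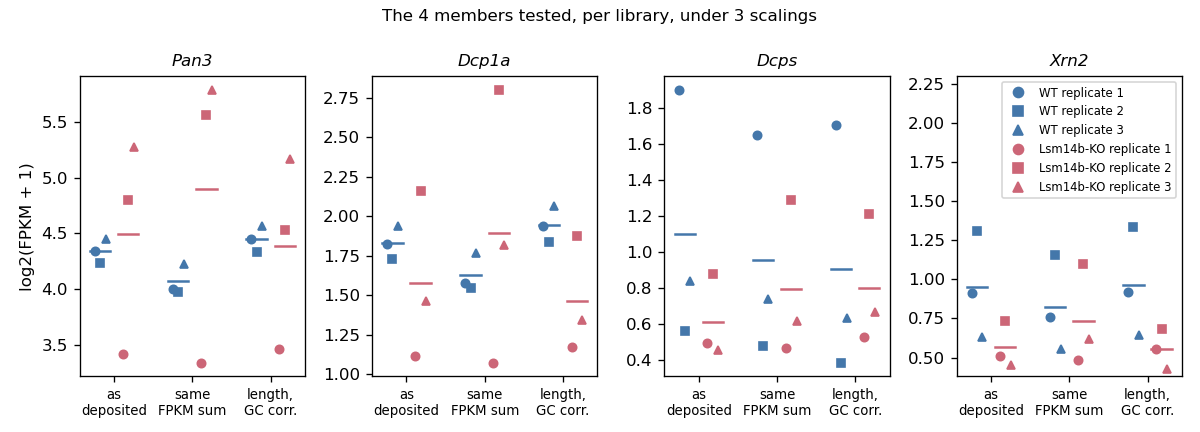
log2(FPKM + 1) of the 4 tested members in each library, as deposited, with all libraries scaled to the same FPKM sum, and after correction for transcript length and GC content. Blue is WT, red is Lsm14b-KO, the shape gives the replicate and short lines are group means. Lsm14b-KO replicate 1 of Pan3 stayed below all WT libraries under each of the 3 scalings, with the other Lsm14b-KO libraries mostly above them.

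Ratios between partner genes within a library do not depend on how that library was scaled. Of 7 pairs, 3 had both genes above 0 in all libraries. The log2 ratio of Dcp2 to Dcp1a was -2.40, -2.55 and -2.60 in WT and -1.69, -3.06 and -2.99 in Lsm14b-KO, so Dcp1a exceeded Dcp2 per length in every library. The WT ratios were within a narrow span (mean -2.52 ± 0.10, SD, n = 3) and those of Lsm14b-KO were wider (-2.58 ± 0.77). The log2 ratio of Pan3 to Pan2 was 4.98, 5.79 and 5.87 in WT and 4.72, 6.06 and 6.07 in Lsm14b-KO. The adaptor transcript thus outnumbered that of the catalytic subunit per length in all 6 libraries.

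Dcp2 to Dcps gave log2 ratios of -2.51, -0.26 and -0.75 in WT and -0.16, -1.01 and -0.75 in Lsm14b-KO, and the low first value is the WT library in which Dcps was high. For Dcp2 to Dcp1a and Pan3 to Pan2 the difference between the genotypes was smaller than the SD of either group. For Dcp2 to Dcps it was smaller than the SD of WT (1.18) but larger than that of Lsm14b-KO (0.43). The differences (Lsm14b-KO minus WT) were -0.06 for Dcp2 to Dcp1a, 0.53 for Dcp2 to Dcps and 0.07 for Pan3 to Pan2, with two-sided exact permutation p of 1, 0.60 and 0.80 and an adjusted p of 1 for all 3 pairs.

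**Figure D4:**
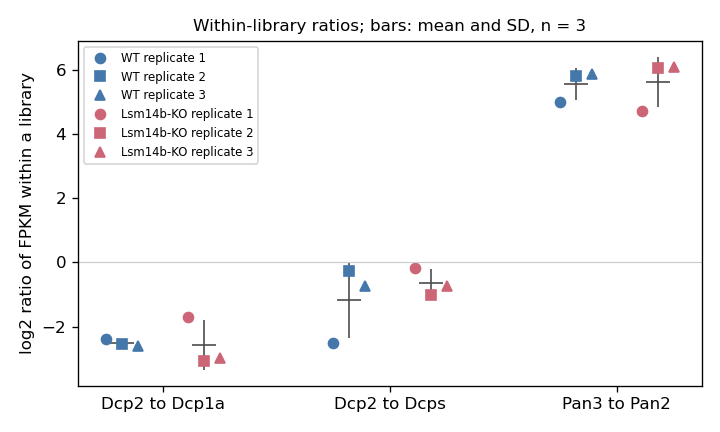
Log2 ratio of the FPKM values of partner genes within each library. Blue is WT, red is Lsm14b-KO, the shape gives the replicate, and grey marks are the mean and SD (n = 3). Dcp2 lay below Dcp1a and Pan3 above Pan2 in all 6 libraries, and the groups overlapped for each pair.

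Among genes that act with these enzymes, some rose and others fell. In 5 lists of such genes 54 were in the table, 37 were tested and 12 passed an adjusted p of 0.05 (32.4%, beside 21.6% of all tested genes), 5 higher and 7 lower in Lsm14b-KO. Of the genes named below, Ddx6, Patl2 and Tob2 reached the minimum of 1 FPKM only in Lsm14b-KO, and Pabpn1l only in WT. The lists were also chosen with earlier results of these data known. No conclusion about the pathways is therefore drawn from the list shares here and below. This count rested heavily on single libraries. It was 5, 6 and 5 without WT replicates 1, 2 and 3, and 22, 7 and 5 without Lsm14b-KO replicates 1, 2 and 3. The count over all tested genes moved alike, to 396, 397 and 462 and to 2898, 865 and 315. With no minimum on the level 6 list genes passed, and Ddx6, Pnrc1, Nudt2, Tob1 and Tob2 were not among them (limma adjusted p from 0.0637 to 0.101).

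Of 14 genes grouped here as decapping activators or their partners, all tested, 2 rose and 1 fell. That is 21.4%, near the 21.6% of all tested genes, and the median log2 fold change was 0.02. Patl2, an oocyte member of the PAT1 family, rose from 0.463, 0.506 and 0.448 FPKM in WT to 2.60, 4.21 and 2.23 FPKM in Lsm14b-KO (log2 fold change 1.42 ± 0.23, SE, limma adjusted p = 0.00624). Its gene overlaps B2m on the other strand, so reads of the 2 genes may not be separable. Ddx6, the RNA helicase that activates decapping and binds LSM14 proteins, was at 0, 0 and 0.340 FPKM in WT and 0.825, 3.47 and 1.35 FPKM in Lsm14b-KO (limma adjusted p = 0.0347). A listed 0 can also be an estimate that failed, and another gene overlaps Ddx6 on the other strand. The Ddx6 call was lost without any one of WT replicates 1, 2 and 3 or Lsm14b-KO replicates 2 and 3 (limma adjusted p from 0.0556 to 0.123). By Western blot the study found less DDX6, PATL2 and EIF4ENIF1 protein in Lsm14b-KO oocytes. Those are protein levels, unlike the transcript levels here. Pnrc1, a nuclear recruiter of the decapping complex, fell from 30.1 ± 8.47 to 9.74 ± 4.74 FPKM (SD, n = 3, limma adjusted p = 0.0255), and that call was lost without any one library other than Lsm14b-KO replicate 1 (limma adjusted p from 0.0551 to 0.112), with the same FPKM sum in each library (0.0511) and with quantile normalization (0.0516).

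The other partners of LSM14 and DDX6 did not pass. Patl1 had 0.317, 0.278 and 0.308 FPKM in WT and 0.621, 0.716 and 1.23 FPKM in Lsm14b-KO, without overlap (limma adjusted p = 0.114). Eif4enif1, which encodes the eIF4E transporter 4E-T, had 9.80 ± 0.281 and 12.6 ± 1.69 FPKM (SD, n = 3, limma adjusted p = 0.308). Lsm14a, the paralogue of Lsm14b, had 18.6 ± 1.35 and 19.5 ± 3.64 FPKM (limma adjusted p = 0.886). Its log2 fold change was 0.05, and it was 0.72 with the same FPKM sum in each library and 0.45 with quantile normalization, without passing. LSM1 to LSM7 form the ring that binds the ends of deadenylated mRNA ahead of decapping. None of their 7 genes passed (limma adjusted p from 0.110 to 0.685), where 21.6% of all tested genes did. From Lsm1 to Lsm7 the log2 fold changes were 0.27, -0.51, -1.43, 0.36, -0.27, -0.64 and -1.35, so sizeable changes of single genes are not excluded. Lsm2 did not overlap between the groups, as 45% of all tested genes did not.

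Among other cap hydrolases and Nudix genes, 2 of 6 were tested and 1 passed (50%, beside 21.6% of all tested genes). Nudt2 fell from 266, 241 and 178 FPKM in WT to 146, 36.9 and 57.2 FPKM in Lsm14b-KO (limma adjusted p = 0.0449), and the call was lost without any one library other than Lsm14b-KO replicate 1 (limma adjusted p from 0.0917 to 0.158) and with the same FPKM sum in each library (limma adjusted p = 0.0535) or quantile normalization (0.0806). NUDT2 hydrolyses dinucleoside polyphosphates and is no canonical decapping enzyme. The other tested gene, Nudt16l1, named here after its values were seen, had 5.57, 5.50 and 5.60 FPKM in WT and 8.86, 9.47 and 9.78 FPKM in Lsm14b-KO, without overlap (limma adjusted p = 0.0518). With the length and GC correction, and with no variance trend, 2 genes of this list passed, where 22.6% and 20.6% of all tested genes did.

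Of 11 genes for poly(A)-binding proteins and recruiters of deadenylases 5 were tested, with 2 higher and 1 lower (60%, beside 21.6% of all tested genes). Their median log2 fold change was 0.37. The share and the median rest partly on Tob2 and Pabpn1l, which each reached 1 FPKM in only 1 of the genotypes. Tob1 and Tob2, whose proteins link deadenylases to the poly(A)-binding protein, were 1.36 ± 0.669 and 0.473 ± 0.161 FPKM in WT and 3.86 ± 1.17 and 1.76 ± 0.581 FPKM in Lsm14b-KO (SD, n = 3, limma adjusted p = 0.0335 and 0.0304). Both calls were lost without any one library other than Lsm14b-KO replicate 1, with limma adjusted p from 0.0543 to 0.133, and Tob2 overlaps an antisense gene. Pabpn1l, an oocyte poly(A)-binding protein, fell from 4.04, 2.0003 and 3.59 FPKM to 0.643, 0.739 and 0.523 FPKM (log2 fold change -1.33 ± 0.24, SE, limma adjusted p = 0.0099). Without WT replicate 1, WT replicate 3 or Lsm14b-KO replicate 3 its limma adjusted p was 0.0503, 0.0524 and 0.0597, and with the same FPKM sum in each library it was 0.0511. Pabpn1l is also overlapped by a gene on the other strand.

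Of 17 genes for other deadenylase subunits and their activators 12 were tested and 3 fell (25%, beside 21.6% of all tested genes in either direction and 15.2% lower), with a median log2 fold change of -0.32. Btg4, the adaptor that brings the CCR4-NOT deadenylase to maternal mRNA, fell from 4979, 4441 and 5534 FPKM in WT to 1087, 1454 and 1522 FPKM in Lsm14b-KO (log2 fold change -1.89 ± 0.27, SE, limma adjusted p = 0.00474). Noct, a member of the CCR4 family, fell from 12.7 ± 1.57 to 3.24 ± 0.774 FPKM (SD, n = 3, limma adjusted p = 0.0038), although its longest transcript shares repeat-like stretches with 39 other genes. Cnot3, a CCR4-NOT subunit, fell from 13.98 ± 1.91 to 4.15 ± 1.42 FPKM (limma adjusted p = 0.00779). On the other strand 4 genes overlap Btg4, and Cnot3 shares near-identical stretches with 2 other genes, so their reads may not be separable. The calls of Btg4, Noct and Cnot3 held without each library in turn. That of Btg4 was lost with quantile normalization (limma adjusted p = 0.0649) and that of Cnot3 with the same FPKM sum in each library (limma adjusted p = 0.0634).

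Of 6 genes for cofactors of XRN2 and related termination factors 4 were tested, and 1 was higher and 1 lower (50%, beside 21.6% of all tested genes). Cdkn2aipnl, which encodes an XRN2-binding protein, fell from 12.98, 11.2 and 12.2 FPKM in WT to 1.78, 1.95 and 2.25 FPKM in Lsm14b-KO (log2 fold change -2.14 ± 0.20, SE, limma adjusted p = 0.00121). The groups were far apart, and the call held in every setting. Another gene overlaps Cdkn2aipnl on the other strand, so reads of the 2 genes may not be separable. Xrn2 itself, given above, had no call in any setting.

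**Figure D5:**
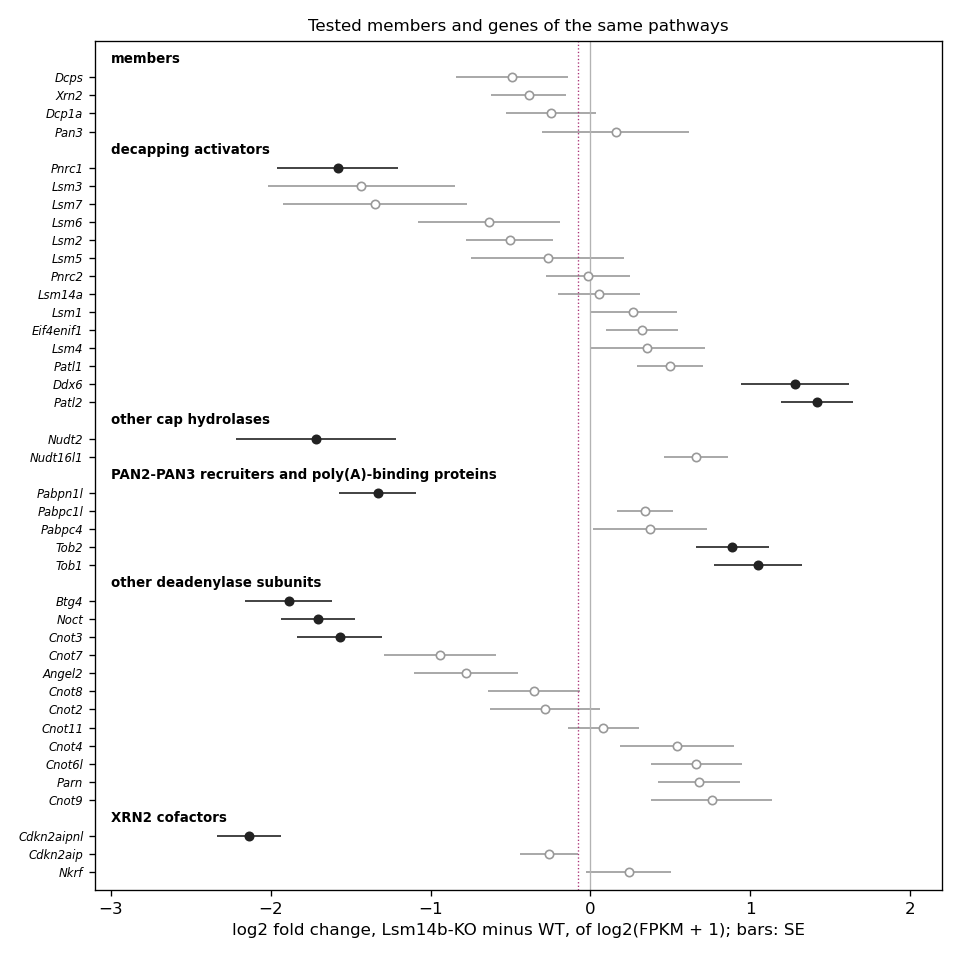
Log2 fold change (Lsm14b-KO minus WT, of log2(FPKM + 1), horizontal axis) of the 4 tested members and of 36 of the 37 tested genes in 5 pathway lists, with SE. Filled points passed an adjusted p of 0.05, open points did not, and the dotted line is the median of all tested genes (-0.08). The 4 members lay between -0.49 and 0.16 with no filled point.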

How the data were processed

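RNA-Seq was carried out on 6 libraries of 20 GV-stage FGOs. Per the labels, cDNA was made with random primers and amplified by Smart-seq2, and 2 library kits (NEBNext and KAPA) are named in separate places. The authors aligned the reads to mm10 with TopHat2 (2.0.13) and deposited FPKM values computed with Cufflinks (2.2.1). Cuffnorm is also named, and the depths implied here take each library as scaled to its own fragments. The annotation is not given in the sources used here. The deposited table also holds the authors' fold change, p and q columns from Cuffdiff, which were not used. The 10 genes, the 5 pathway lists and the marker lists were chosen with earlier results of these data known. One list symbol, Dom3z, is an older name of Dxo and was counted once under that name. One gene of the XRN2 cofactor list stays in the counts and is not reported here.

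The deposited FPKM values were taken as log2(FPKM + 1). A gene was tested if any library reached 1 FPKM, which 6398 did. The test was limma (3.58.1, under R 4.3.3; lmFit and eBayes with trend), two-sided, on genotype alone, with Benjamini-Hochberg adjustment. The fit was tested on simulated data. Log2 ratios were compared by exact permutation with adjustment over the 3 pairs. Genes of the lists were named if they passed the threshold (at most 3 in each direction per list), beside Ddx6, Patl1, Patl2, Eif4enif1 and Lsm14a. Transcripts and coordinates came from GENCODE vM21 (GRCm38, the assembly of mm10), and copies were searched with blastn 2.17.0 (95% identity over 200 nt).

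The table gives FPKM and no read counts. The FPKM worth of 1 fragment was estimated from the commonest low value of FPKM times length among genes with 1 transcript of at least 2000 nt, and 74.3% to 84.1% of low values fell within 0.15 of a whole number. For the low members the assumed length was then set where the values came nearest to whole fragments, so the fragment numbers are approximate. The replicate numbers were not used to pair the libraries in the main test.

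Dcp1a lies at chr14:30479535-30527063 (+), Dcp1b at chr6:119175253-119221616 (+), Dcp2 at chr18:44380502-44424969 (+), Dcps at chr9:35124408-35176061 (-), Edc3 at chr9:57708540-57752499 (+), Edc4 at chr8:105880881-105894908 (+), Xrn1 at chr9:95954760-96057803 (+), Xrn2 at chr2:147012996-147078000 (+), Pan2 at chr10:128303335-128321358 (+) and Pan3 at chr5:147430161-147548502 (+) in GRCm38, and all are protein-coding.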

Additional observations from a re-analysis of the deposited data

How the results depend on the processing

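Under the 14 alternatives no member passed the threshold, except Pan3 without Lsm14b-KO replicate 1, where 45.3% of all tested genes passed (0 to 1 members when each library was left out). With a replicate block 0 members and 11 genes of the pathway lists passed, where 19.4% of all tested genes did. Deviations of same-numbered libraries correlated at 0.19, -0.13 and 0.02, which cannot tell whether those libraries were collected together. Blocked ratios had exact sign-flip permutation p of 1, 0.75 and 0.75 in the order given above, with 0.25 the smallest possible.

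The count of pathway list genes was 6 with no minimum on the level and 5 to 22 without each library in turn, beside 12. The log2 fold change of Dcp1a was 0.27 with the same FPKM sum. That of Pan3 was -0.060 after the length and GC correction and -0.23 to 0.70 without each library, and that of Lsm14a was -0.050 to 0.20. The ratio of Dcp2 to Dcp1a differed by 0.13 with a pseudocount of 1, and by -0.51 to 0.18 without each library. For Dcp2 to Dcps this range was -0.14 to 0.99, and for Pan3 to Pan2 it was -0.21 to 0.52. The causes were not tested.

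Over all tested genes, 720 of 14325 passed with no minimum, beside 1383 of 6398. The split into higher and lower was 540 and 735 with quantile normalization and 649 and 796 with the length and GC correction. Levels under 1 FPKM rest on at most 27 fragments a library, so changes of Dcp2, Edc4, Xrn1 or Pan2 could go undetected at this depth. The quantile and length corrections were not run for those 4 genes.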
